A study of Mus musculus with 192 samples.

Results

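Epididymal white adipose tissue (eWAT), the visceral fat pad beside the testis, was compared between Nrf2-knockout and wild-type mice that had lived on the International Space Station. All eWAT libraries of flight mice entered, 5 of knockouts (FL_KO) and 6 of wild type (FL_WT), that is 11 of the 192 libraries of the series. Flight mouse 4, a knockout with intestinal hemorrhage on the way back, was left out and is used only where named. Mice were males of strain C57BL/6 by their labels and of the C57BL/6J background by the study's methods, bred at a single breeder. Their labels give an age of 12 weeks, which the methods describe as reached before transport to the station. Fat of the flight mice was taken later, after their return to Earth and behavioral tests. The knockouts carried Nfe2l2 tm1Ymk, a germline allele present in every cell, and the wild type came without it. Ground mice of both genotypes (GC_KO and GC_WT, 6 each) were kept in the same kind of cage at another time and site. Each library came from the fat of 1 mouse, made from poly(A) RNA with a strand-specific kit. Before the experiment the knockouts were given ketamine and xylazine, and those that slept long were taken to be free of a liver shunt and kept. The methods describe no such test for the wild type. Whether the mice were littermates is not stated. The allele, this treatment and selection, and any other difference between the knockout and wild-type lines cannot be told apart.

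Nfe2l2 encodes Nrf2, a basic leucine zipper transcription factor that Keap1 holds in the cytoplasm and hands to the proteasome. When oxidants or electrophiles modify Keap1, Nrf2 builds up, pairs with a small Maf protein and binds the antioxidant response element near genes of glutathione synthesis, quinone reduction, conjugation and NADPH supply. White fat is made up mostly of adipocytes by volume, with fibroblasts, endothelial cells and macrophages between them.

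In FL_KO, 62 of 15317 genes were higher and 101 lower than in FL_WT, 163 in all. A gene was called where its Benjamini-Hochberg adjusted p in edgeR's quasi-likelihood test was under 0.05. The called genes were 1.06% of those tested, 0.405% called higher and 0.659% called lower. In the middle of the called genes the change was 0.81 on the log2 scale without its sign, and 67 moved by more than 1, 27 up and 40 down. TPM (a transcript level corrected for gene length and library size) of the 2 groups did not overlap for 112 of the called genes, 47 higher and 65 lower, against 1.91% of all genes tested. In bulk tissue, fewer cells of a type and less RNA per cell cannot be told apart.

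**Figure D1:**
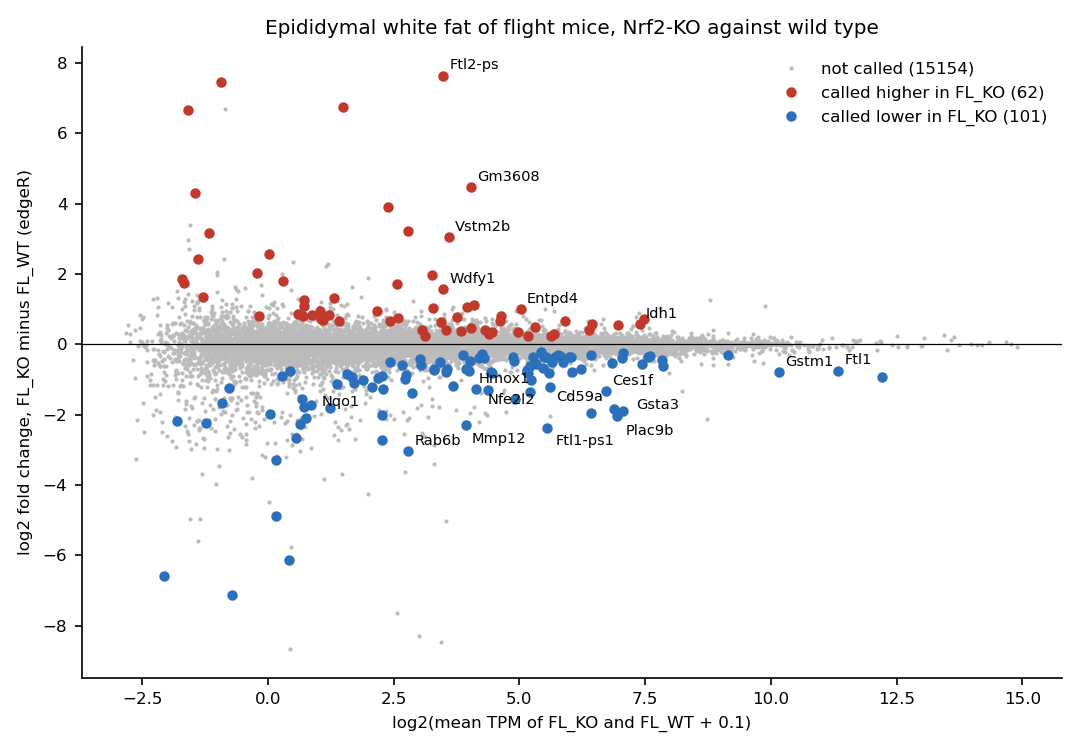
Each dot is 1 of the 15317 genes tested in eWAT of flight mice, with log2(mean TPM + 0.1) of FL_KO and FL_WT on the x axis and the log2 fold change of FL_KO against FL_WT on the y axis. The 62 genes called higher are red, the 101 called lower blue and the others grey, and Nfe2l2 lies at -1.22.

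The libraries held 15471214 to 16045813 counts each. They were fat by their markers: mean TPM in FL_KO and FL_WT was 30019 and 31324 for Fabp4, the fatty acid binding protein of adipocytes, and 4831 and 4574 for the hormone gene Adipoq. Of 12 markers of epididymis epithelium, the neighbouring organ, 0 were high enough to be tested, and their summed level was 0.90 TPM or less in every flight library. The library of FL_WT mouse 3 stood apart. Its summed B cell markers reached 1657 TPM against 154 to 322 in the other wild-type mice, its immunoglobulin genes 3679 against 32.7 to 382, and its adipocyte markers were the lowest at 64965 against 74643 to 85412. Values without this mouse are given beside many of the results that it moves, and without it 139 genes were called.

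Nfe2l2 itself (chr2:75675513-75704641, minus strand, mm10) checked the labels. In FL_KO mice 1, 2, 9, 11 and 12, the order kept throughout, it measured 27.2, 27.0, 27.9, 34.3 and 31.0 TPM, and in FL_WT the lowest, median and highest were 58.7, 68.75 and 80.6 TPM. The groups lay far apart, although no knockout was near 0. Counts per gene do not show which exons the remaining reads cover, and which part the allele lacks was not tested. The fold change was -1.22 on the log2 scale (SE 0.091, adjusted p = 5.65e-09).

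The letters TGACNNNGC, the core of the antioxidant response element, were searched on both strands of RefSeq promoters (GRCm38.p6, 250 bases before to 50 after a start). They were in 21 of the 73 genes called lower that had a promoter there (28.8%), in 8 of 38 called higher (21.1%), and in 16.9% of all genes tested with a promoter, with no test of the difference. The 21 include Nfe2l2, the gene knocked out. They also include Plac9a, Plac9b and Gm9780, near-identical copies with the same match, so these are not separate cases. Over all 32851 promoters of that reference the share was 12.4%. Promoters of Gsta3, Pir, Abcc4 and Nfe2l2 from the Nrf2 lists and of Hfe, an iron regulator, are shown because these genes were called lower and hold the letters, which are in capitals on the gene's strand. They lie at chr1:21240335-21240634 (plus) for Gsta3, chrX:164269181-164269480 (plus) for Pir, chr14:118706170-118706469 (minus) for Abcc4, chr2:75704614-75704913 (minus) for Nfe2l2 and chr13:23710805-23711104 (minus) for Hfe.
Gsta3: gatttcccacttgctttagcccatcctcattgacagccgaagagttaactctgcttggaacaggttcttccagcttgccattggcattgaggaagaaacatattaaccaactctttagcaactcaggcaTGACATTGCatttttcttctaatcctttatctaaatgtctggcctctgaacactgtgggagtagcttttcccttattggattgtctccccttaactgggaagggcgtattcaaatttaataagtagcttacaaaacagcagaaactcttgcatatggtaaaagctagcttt
Pir: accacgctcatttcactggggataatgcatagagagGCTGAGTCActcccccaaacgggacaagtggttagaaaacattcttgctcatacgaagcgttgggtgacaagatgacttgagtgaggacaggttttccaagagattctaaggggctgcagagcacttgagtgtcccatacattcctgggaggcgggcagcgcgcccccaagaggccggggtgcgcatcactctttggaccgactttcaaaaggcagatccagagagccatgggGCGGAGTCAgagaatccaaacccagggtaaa
Abcc4: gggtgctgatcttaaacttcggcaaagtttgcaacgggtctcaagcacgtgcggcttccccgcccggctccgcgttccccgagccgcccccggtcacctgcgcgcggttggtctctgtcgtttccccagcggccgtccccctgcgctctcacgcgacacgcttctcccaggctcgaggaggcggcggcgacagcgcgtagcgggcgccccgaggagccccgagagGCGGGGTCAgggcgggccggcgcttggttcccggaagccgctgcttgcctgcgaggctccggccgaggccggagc
Nfe2l2: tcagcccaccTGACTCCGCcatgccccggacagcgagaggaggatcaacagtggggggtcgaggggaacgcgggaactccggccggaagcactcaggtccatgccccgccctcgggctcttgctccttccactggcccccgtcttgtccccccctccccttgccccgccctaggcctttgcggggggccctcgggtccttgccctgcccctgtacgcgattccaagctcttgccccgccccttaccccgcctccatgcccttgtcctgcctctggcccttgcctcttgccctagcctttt
Hfe: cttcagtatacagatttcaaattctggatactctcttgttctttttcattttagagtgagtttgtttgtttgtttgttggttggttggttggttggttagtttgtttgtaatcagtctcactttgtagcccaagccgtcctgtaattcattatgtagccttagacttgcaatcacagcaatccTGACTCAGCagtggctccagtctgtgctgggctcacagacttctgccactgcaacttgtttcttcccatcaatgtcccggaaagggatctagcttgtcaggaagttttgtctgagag

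Counted from the transcription start, the matched letters began at -121 in Gsta3, at -214 and 20 in Pir, at -25 in Abcc4, at -240 in Nfe2l2 and at -67 in Hfe. Pir had both of its matches in 1 window. Abcc4 had another listed promoter with a match, at -23 from its start, which is not shown. No match stood in the windows of Nqo1, Gclc, Gstm1, Ftl1, Hmox1, Aox1 or Ces1f, which says only that these letters are not in those bases. A match is a description and does not show that a protein binds there.

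Antioxidant and detoxification genes, taken as 6 lists of 121 genes, leaned lower in FL_KO. Of 102 members tested, 11 were called lower and 4 higher, 70 lay below 0, and the median was -0.10, where 7659 of the 15317 genes tested lay below 0 and the median of all was -0.00. Without FL_WT mouse 3, 9 were called lower and 2 higher, 79 lay below 0 and the median was -0.11. On the ground, 23 of the same members were called lower and 3 higher, with a median of -0.15. Nnt is counted under 2 overlapping identifiers among the members tested and, in flight and on the ground, among those called higher. Among these members, 19 of the 22 glutathione and thioredoxin genes were below 0 but only Gclc was called there.

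Of the conjugating enzymes, 2 glutathione transferases were called lower and 1 higher. Gsta3, an alpha class glutathione S-transferase, measured 61.5, 33.7, 66.4, 60.7 and 61.0 TPM in FL_KO, and 153, 194 and 304 TPM (lowest, median and highest) in FL_WT. The highest knockout stayed well below the lowest wild type, with a fold change of -1.89 (SE 0.19, adjusted p = 8.42e-07). Gstm1, a mu class member of the same enzyme family, was at 901, 815, 764, 829 and 901.5 TPM in FL_KO and at 1194, 1379 and 1758 TPM in FL_WT, a fold change of -0.79 (SE 0.10, adjusted p = 4.53e-05). Reads can be shared between close members of the alpha and mu families, and the counts of such genes are uncertain to that extent. Gsto2, an omega class transferase, went the other way. Its levels were 7.14, 8.54, 4.24, 5.17 and 3.89 TPM in FL_KO against 2.39, 2.93 and 3.71 TPM in FL_WT, a fold change of 0.94 (SE 0.21, adjusted p = 0.0225). The groups touched closely for Gsto2, and its call was lost without FL_WT 3, FL_WT 5, FL_KO 1 or FL_KO 2 (adjusted p 0.0102 to 0.0884 over the 11 fits that each left out 1 mouse). Of 20 transferases tested, 8 were below 0 in flight with a median of 0.02, and on the ground 7 were called lower and 1 higher. Without FL_WT mouse 3, 12 of the 20 were below 0 in flight with a median of -0.04.

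Glutathione synthesis starts with glutamate cysteine ligase. Its catalytic subunit Gclc measured 17.0, 17.0, 16.4, 17.0 and 17.7 TPM in FL_KO and 19.5, 21.8 and 24.3 TPM in FL_WT. The change was modest but the knockouts lay tightly together below all wild-type mice (-0.39, SE 0.067, adjusted p = 0.00252). The modifier subunit Gclm had a fold change of -0.28 and the sulfiredoxin gene Srxn1 one of -0.29, neither past the threshold (adjusted p = 0.0754 and 0.103).

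Oxidoreductases and iron or heme handling genes gave 5 calls among 32 tested, all lower. Nqo1, the quinone reductase often used as a readout of Nrf2, was at 2.23, 2.11, 2.78, 2.22 and 3.0 TPM in FL_KO and at 4.69, 5.63 and 7.26 TPM in FL_WT. Every knockout lay below every wild type, and the fold change was -1.22 (SE 0.19, adjusted p = 0.000644). Ftl1, the ferritin light chain that stores iron, was among the most abundant of these genes. Its levels were 1911, 2012, 2003, 2021 and 1957 TPM in FL_KO and 3034, 3222 and 3396 TPM in FL_WT (-0.74, SE 0.085, adjusted p = 9.17e-06). Aox1, an aldehyde oxidase, stood at 30.6, 26.6, 22.4, 27.5 and 23.8 TPM against 36.8, 45.2 and 49.7 TPM, also without overlap (-0.78, SE 0.11, adjusted p = 0.000241). Pir, an iron-containing nuclear protein, was at 5.34, 3.78, 5.02, 4.31 and 3.45 TPM against 6.55, 8.36 and 10.98 TPM (-0.99, SE 0.18, adjusted p = 0.00498).

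Hmox1, the heme oxygenase that frees iron from heme, overlapped between the groups. It measured 33.1, 48.3, 31.3, 31.0 and 31.0 TPM in FL_KO and 42.9, 51.2 and 106 TPM in FL_WT, and FL_KO mouse 2 stood above the others of its group. The fold change was -0.80 (SE 0.18, adjusted p = 0.0249), and the call was lost without FL_WT 3, FL_WT 8, FL_KO 1, FL_KO 9, FL_KO 11 or FL_KO 12 (adjusted p 0.00912 to 0.0886). Mouse 4, left out of these values, had 132 TPM of Hmox1, and with it in FL_KO the gene was not called.

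Among transporters and hydrolases, Abcc4, an exporter of conjugates and nucleotides, was at 4.44, 5.25, 4.96, 4.04 and 3.27 TPM in FL_KO and at 4.86, 6.37 and 7.51 TPM in FL_WT. The groups overlapped (-0.51, SE 0.12, adjusted p = 0.0428), and leaving out FL_WT 3, 5, 6 or 10 or FL_KO 1, 11 or 12 ended the call (adjusted p 0.0183 to 0.126). Ces1f, a carboxylesterase of a cluster of near-identical genes that may share reads, was at 58.5, 52.2, 72.7, 63.2 and 56.9 TPM against 97.5, 143 and 240 TPM. All knockouts were lower, by -1.32 on the log2 scale (SE 0.27, adjusted p = 0.0105). It was the only call among 6 carboxylesterases tested and Abcc4 the only call among 7 transporters.

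**Figure D2:**
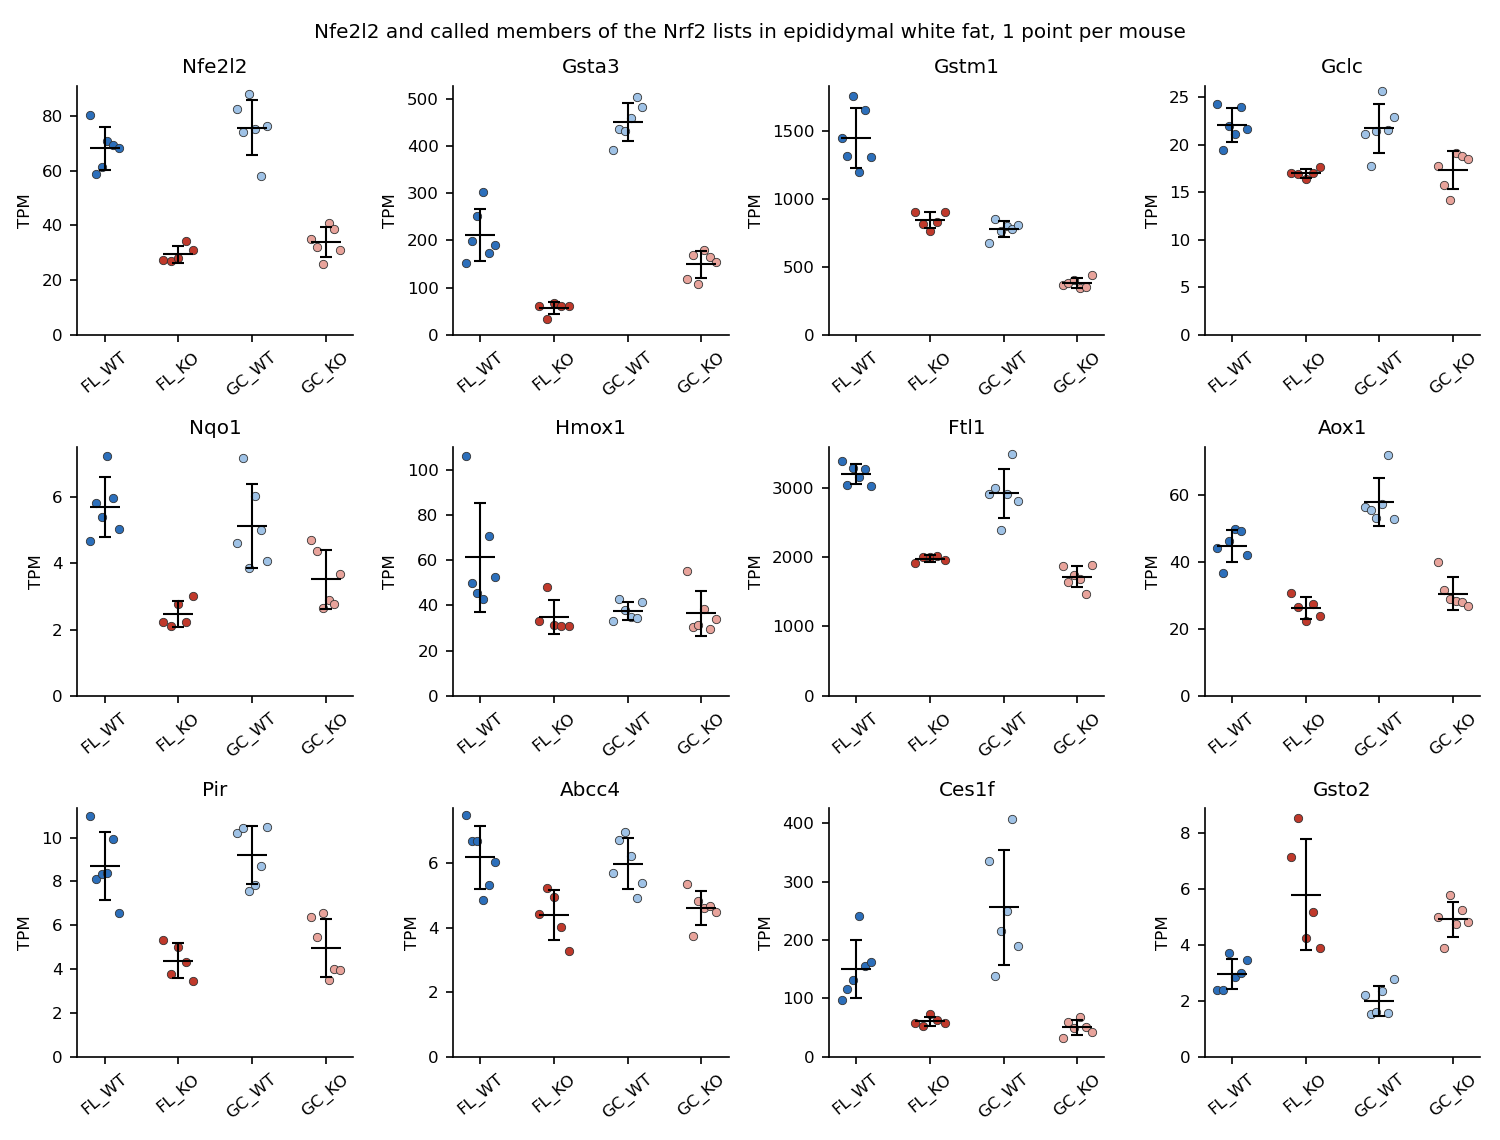
Each panel plots the TPM of 1 gene on the y axis against the 4 groups on the x axis, with 1 point per mouse and bars at the mean ± SD. Nfe2l2, Gsta3, Gstm1, Gclc, Nqo1, Ftl1, Aox1, Pir and Ces1f lie lower in FL_KO than in FL_WT without overlap, Hmox1 and Abcc4 overlap, and Gsto2 lies higher.

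NADPH supply held calls in both directions. Idh1, the cytosolic isocitrate dehydrogenase that makes NADPH, was at 164, 178, 221, 223 and 225 TPM in FL_KO and at 114, 132 and 163 TPM in FL_WT, barely apart (0.58, SE 0.13, adjusted p = 0.0295). Its call was lost without FL_WT 3, 5, 6 or 8 or FL_KO 9, 11 or 12 (adjusted p 0.0143 to 0.104). Rpe, an epimerase of the pentose phosphate pathway, was lower at 37.4, 42.7, 42.5, 36.6 and 38.4 TPM against 46.0, 50.3 and 56.2 TPM (-0.36, SE 0.083, adjusted p = 0.0317). Without FL_WT 5, 6 or 7 or FL_KO 1, 11 or 12 it was not called (adjusted p 0.0188 to 0.109).

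Nnt, the mitochondrial transhydrogenase that makes NADPH from NADH, is known to carry a deletion in the C57BL/6J substrain. The annotation lists it under 2 overlapping identifiers, between which reads may be split. Under ENSMUSG00000116207.1 its levels were 23.2, 18.9, 22.8, 24.1 and 29.0 TPM in FL_KO and 8.35, 10.6 and 13.3 TPM in FL_WT (1.13, SE 0.15, adjusted p = 6.75e-05). Under ENSMUSG00000025453.18 they were 11.1, 16.5, 14.5, 9.85 and 9.75 TPM against 0, 1.24 and 2.90 TPM (3.23, SE 0.76, adjusted p = 0.0383). Knockouts lay above wild type for each identifier, on the ground too (0.97 and 3.25, adjusted p = 0.000236 and 0.0197). Only the second call was fragile, lost without FL_WT 6, 7 or 10 or any 1 knockout (adjusted p 0.038 to 0.0923) and by DESeq2. Which Nnt allele each mouse carried was not tested.

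Of 13 regulators and partners of Nrf2, Nfe2l2 was the only call in flight. Another 10 also lay below 0 and the median was -0.17. Mafg, a small Maf partner, fell short of the threshold with a fold change of -0.21 (adjusted p = 0.0911).

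The largest increases outside these lists were mostly pseudogenes and little-studied genes. Gm3608, a pseudogene, was at 28.0, 33.3, 31.2, 30.9 and 33.0 TPM in FL_KO and at 1.13, 1.37 and 1.61 TPM in FL_WT (4.48, SE 0.30, adjusted p = 9.64e-10). Gm7868, a processed pseudogene, was at 12.5, 11.4, 9.99, 7.50 and 7.22 TPM against 0, 0.585 and 1.19 TPM (3.91, SE 0.45, adjusted p = 1.15e-05). These were close to silent in wild-type fat. Vstm2b, a membrane protein with an immunoglobulin-like domain, was at 29.7, 20.2, 21.7, 18.02 and 17.3 TPM against 1.83, 2.87 and 3.31 TPM (3.05, SE 0.20, adjusted p = 6.59e-10).

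Ftl2-ps, a ferritin light chain pseudogene, had 109, 128, 76, 91 and 57 counts in FL_KO and a count of 0 in 5 of the 6 FL_WT libraries, with 2 counts in FL_WT 7. Gm27177, antisense to Entpd4b, had 122, 135, 97, 125 and 136 counts in FL_KO and 0 to 3 in FL_WT. Both were called, but a fitted fold change against such counts depends on the prior count and none is given. The strand setting of the counting is not stated, so reads of an antisense gene and of its partner may be mixed.

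Entpd4 and Entpd4b, near-identical copies of a Golgi nucleotidase that may share reads, rose together. Entpd4 was at 41.1, 43.4, 43.3, 42.9 and 46.1 TPM in FL_KO against 19.03, 21.2 and 25.9 TPM in FL_WT (1.02, SE 0.058, adjusted p = 8.53e-11), and Entpd4b had a fold change of 1.08 (SE 0.074). Wdfy1, an endosomal adaptor protein, had the smallest p of all genes. Its levels were 16.5, 17.3, 15.5, 16.5 and 15.5 TPM against 5.13, 5.97 and 7.29 TPM (1.57, SE 0.071, adjusted p = 1.73e-12). Kcnj14, a potassium channel, rose by 1.73 (SE 0.32), from 1.82 to 3.85 TPM in FL_WT to 7.51 to 10.3 TPM in FL_KO. 1500015A07Rik, an antisense gene, rose by 1.98 on the count scale (SE 0.13), and its TPM ranged from 14.4 to 20.6 in FL_KO and from 1.67 to 2.72 in FL_WT. Stc2, a secreted glycoprotein, was higher at 25.2, 29.8, 34.4, 35.9 and 32.0 TPM against 16.4, 17.7 and 19.4 TPM (0.81, SE 0.11, adjusted p = 7.06e-05).

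Vcpkmt, a lysine methyltransferase of the chaperone ATPase VCP, was at 12.0, 17.5, 10.3, 11.8 and 13.3 TPM in FL_KO and at 5.35, 6.01 and 7.27 TPM in FL_WT (1.04, SE 0.13, adjusted p = 4.6e-05). All knockouts exceeded all wild-type mice.

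A ferritin copy and a complement inhibitor were among the largest decreases. Ftl1-ps1, a ferritin light chain gene copy whose reads may be shared with Ftl1, was at 13.1, 24.4, 12.3, 10.4 and 15.1 TPM in FL_KO and at 60.1, 75.2 and 99.0 TPM in FL_WT (-2.39, SE 0.22, adjusted p = 3.64e-07). Cd59a, the membrane inhibitor of complement lysis, was at 53.6, 49.4, 49.8, 58.9 and 50.01 TPM against 149, 184 and 229 TPM (-1.84, SE 0.11, adjusted p = 2.36e-10). Every knockout had far less Cd59a than any wild type. Capza1, an actin capping subunit, measured 17.6, 21.8, 17.7, 25.8 and 22.3 TPM against 48.9, 51.2 and 67.0 TPM (-1.35, SE 0.086, adjusted p = 4.02e-10). Cdc42bpg, a kinase downstream of Cdc42, had 9.40, 10.6, 9.78, 12.1 and 10.3 TPM against 21.3, 24.7 and 29.0 TPM (-1.26, SE 0.089, adjusted p = 1.77e-09). Tmem267, a membrane protein of unknown role, fell by 1.31 on the log2 scale (SE 0.20, adjusted p = 0.000644), with 6.76 to 18.2 TPM in FL_KO and 26.8 to 33.8 TPM in FL_WT.

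Rab6b, a small GTPase of Golgi traffic, was at 0.690, 0.490, 1.12, 2.12 and 3.08 TPM in FL_KO and at 10.6, 11.7 and 14.6 TPM in FL_WT (-3.03, SE 0.61, adjusted p = 0.0102). Ground knockouts 1, 2, 4, 9, 11 and 12 had 11.9, 0.990, 0.460, 15.3, 13.2 and 2.35 TPM, against 9.55 to 14.6 TPM in GC_WT. Ground knockouts 2, 4 and 12 were thus near the flight knockouts and 1, 9 and 11 near the wild type, and the ground fold change of -0.85 was not called (adjusted p = 0.457).

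A group of near-identical neighbours on chromosome 14 (mm10, starts from 25887506 to 26167405) fell as well, with reads that may be shared among them. Plac9b, a small secreted protein gene, was at 45.9, 30.3, 58.2, 44.3 and 55.3 TPM in FL_KO and at 157, 210 and 227 TPM in FL_WT (-2.04, SE 0.36, adjusted p = 0.00265), and Gm9780 beside it fell by 1.94 (SE 0.35, adjusted p = 0.00313). Tmem254c was at 12.7, 17.7, 13.6, 14.7 and 18.7 TPM against 34.1, 45.7 and 54.3 TPM (-1.56, SE 0.33, adjusted p = 0.0178), a call lost without FL_KO 1, 9 or 11 (adjusted p 0.0201 to 0.0625). Plac9a was at 3.11, 3.31, 0, 0 and 0.390 TPM against 4.32, 7.82 and 13.3 TPM, and its call (adjusted p = 0.0429) was lost without FL_WT 3, 5, 6 or 8 or FL_KO 9, 11 or 12 (adjusted p 0.0348 to 0.121). On the ground, knockout 12 was at 227 TPM of Plac9b, 171 of Gm9780 and 83.2 of Tmem254c, while the other 5 knockouts were between 35.3 and 94.8, 30.7 and 73.9, and 14.8 and 24.9 TPM.

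Gm2564, a gene on chromosome 4 (mm10, 42629719-42631714), was at 3.56, 1.48, 2.15, 1.61 and 0.540 TPM in FL_KO against 5.47, 7.53 and 9.95 TPM in FL_WT (-2.01, SE 0.45, adjusted p = 0.0243), and was not called without FL_WT 5 or FL_KO 2, 9, 11 or 12 (adjusted p 0.0134 to 0.0761).

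**Figure D3:**
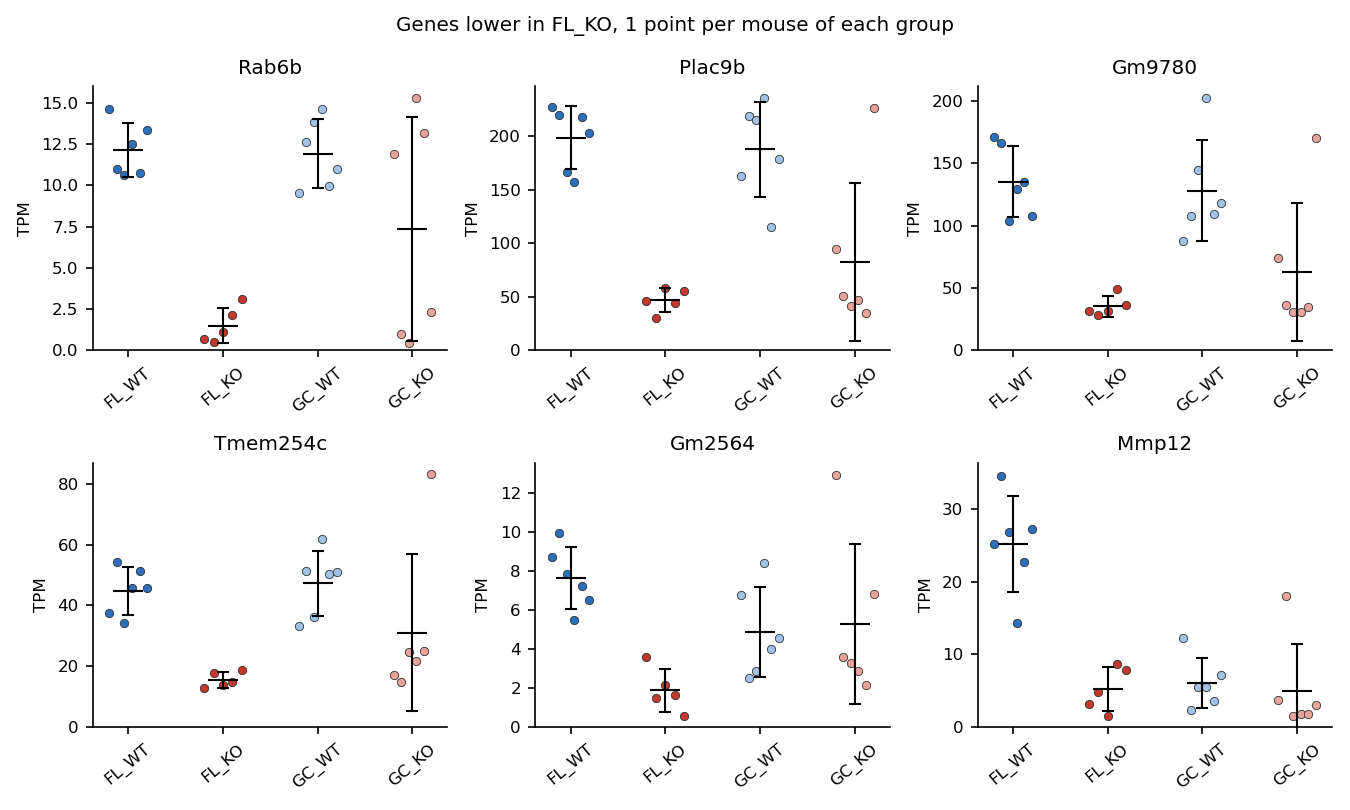
TPM on the y axis is shown for Rab6b, Plac9b, Gm9780, Tmem254c, Gm2564 and Mmp12 against the 4 groups, with 1 point per mouse and bars at the mean ± SD. All 5 flight knockouts lie below the flight wild type for each gene, whereas 1 or more ground knockouts reach the range of the ground wild type or lie above it.

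Several called neighbours shared a stretch of chromosome, a pattern noticed after the values were seen. Of the 163 called genes, 79 (48.5%) had another called gene starting within 1 Mb, against 15.2% of the other genes tested, and they formed 25 runs. Copies that may share reads and overlapping entries count as neighbours here, such as both Nnt identifiers and the Entpd4 and Plac9 groups. How far they raise the share was not tested. The longest was a run of 10 entries on chromosome 7 from Rpl13a to Kcnj14 (starts from 45125558 to 45816460, mm10). It includes Bax, Ftl1 and the entry Gm22133, which lies inside Ftl1. Directions were mixed within it. Around Nfe2l2 itself, 2 of 103 genes within 10 Mb were called (1.94%), namely Osbpl6 (-0.89, adjusted p = 0.00802) and Ccdc141 (1.28, adjusted p = 0.00727), against 1.05% of all other genes. Sequence that the knockout line may carry along from other strains was not tested.

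Genes of the respiratory chain had 0 calls in edgeR and those of fatty acid oxidation had 1 lower and 1 higher, where 1.06% of all genes were called. At an unadjusted p under 0.05 stood 1645 of the 15317 genes tested (10.7%), the share against which such counts are to be read here and in the lists that follow. Of 80 nuclear genes of oxidative phosphorylation 0 were called (1 at an unadjusted p under 0.05), 25 were below 0 and the median was 0.03, and of 13 mitochondrially encoded genes 0 were called (0 unadjusted) with a median of -0.00. Without FL_WT mouse 3 those medians were -0.02 and -0.07. Of 36 fatty acid oxidation genes, Acadl, the long-chain acyl-CoA dehydrogenase, was lower at 220, 201, 187, 193 and 177 TPM against 253, 263 and 276 TPM (-0.44, SE 0.085, adjusted p = 0.00748). Acad10, a related dehydrogenase, was higher at 11.1, 13.8, 13.6, 13.3 and 13.9 TPM against 8.16, 9.74 and 12.0 TPM with overlap (0.40, SE 0.092, adjusted p = 0.0305). Acad10 was not called without FL_WT 3, 5, 8 or 10 or FL_KO 2, 9, 11 or 12 (adjusted p 0.00995 to 0.0993). The list's median was -0.02, and on the ground 6 of its members were called lower.

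Fat storage and adipocyte identity gave 0 calls. Among 27 genes of fatty acid and triglyceride synthesis 19 were above 0 (median 0.14, 4 at an unadjusted p under 0.05). Pnpla3, a lipid droplet acyltransferase and lipase that follows feeding, had medians of 229 TPM in FL_KO and 108 TPM in FL_WT with overlap (0.90, SE 0.28, adjusted p = 0.162). Me1, the cytosolic malic enzyme and a NADPH source, was at 155 to 177 TPM against 196 to 260 TPM, without overlap but past no threshold (-0.46, SE 0.17, adjusted p = 0.247). Medians of 27 lipolysis genes, 17 adipokines, 19 insulin pathway genes and 10 adipocyte markers lay at -0.03, 0.07, 0.03 and 0.06, with 2, 1, 2 and 1 members at an unadjusted p under 0.05. Without FL_WT mouse 3 those medians were -0.06, 0.01, 0.05 and -0.01. Agt, the angiotensinogen gene, had medians of 551 and 414 TPM (0.42, SE 0.15, adjusted p = 0.267), and Pparg, the master regulator of adipocytes, 219 and 179 TPM (0.30, SE 0.099, adjusted p = 0.2). In 24 genes of cholesterol synthesis and uptake 19 were above 0 (median 0.05, 1 unadjusted).

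The lists of macrophage and antigen presentation genes lay below 0 almost throughout, with 0 calls in edgeR among their members. Outside these lists, Mmp12 and Ccl6 of macrophages and Slc11a1 of phagosomes were called lower and are given below. Of 28 macrophage genes 27 were below 0 (median -0.28, 13 at an unadjusted p under 0.05), and of 10 class II presentation genes 10 were (median -0.38, 7 unadjusted). Itgax, the integrin CD11c of lipid-laden macrophages, was between 1.14 and 3.67 TPM in FL_KO and between 2.95 and 7.41 TPM in FL_WT (-0.94, SE 0.28, adjusted p = 0.141), and Cd68, a lysosomal macrophage protein, had medians of 67.3 and 82.8 TPM (-0.55, SE 0.18, adjusted p = 0.183). Without FL_WT mouse 3, the medians were -0.19 and -0.29, with 26 of 28 and 10 of 10 below 0. At an unadjusted p under 0.05 were then 5 and 6 members, and 1337 of all 15232 genes tested. With FL_KO mouse 4 included, 6 and 3 members were, and the medians were -0.19 and -0.24. Summed macrophage markers were 1527 TPM in FL_WT mouse 3, 825 to 1066 TPM in the other FL_WT and 810 to 982 TPM in FL_KO without mouse 4. On the ground the medians of these lists were -0.04 and -0.03.

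Of 26 chemokine ligands 22 lay below 0 and 2 were called lower (median -0.63). Ccl28, a mucosal chemokine, stayed under 1 TPM in every flight mouse (0.0600 to 0.190 in FL_KO, 0.380 to 0.810 in FL_WT), and was called with an adjusted p of 0.0383. Ccl6, a macrophage chemokine, was at 178, 183, 170, 196 and 178 TPM against 184, 260 and 445 TPM (-0.63, SE 0.15, adjusted p = 0.0482). Each call was lost without FL_WT 3, 6 or 10 or FL_KO 1, 9, 11 or 12. The Ccl28 call was also lost without FL_WT 5 or 7, and the Ccl6 call without FL_KO 2, with adjusted p up to 0.113 and 0.127. Without FL_WT mouse 3 the list's median was -0.49 with 21 of 25 below 0 and 0 calls, and on the ground the median was 0.19. With FL_KO mouse 4 included the flight median was -0.23, with 20 of 26 below 0 and 0 calls.

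Matrix genes gave 2 calls of 37, with 24 below 0 and a median of -0.17. Mmp12, the elastase of macrophages, was at 3.19, 4.83, 1.44, 8.58 and 7.80 TPM in FL_KO and at 14.3, 26.1 and 34.6 TPM in FL_WT (-2.28, SE 0.56, adjusted p = 0.0487). Its groups did not overlap, yet the call was kept only without FL_WT 7 and lost without any 1 of the other 10 mice (adjusted p 0.0398 to 0.15). Postn, periostin of the matrix, was at 69.4, 108, 80.2, 105 and 109 TPM against 91.8, 134 and 196 TPM (-0.52, SE 0.13, adjusted p = 0.0427). Only the fits without FL_WT 7 or FL_KO 2 kept Postn called (adjusted p 0.00453 to 0.147). Without FL_WT mouse 3, 19 of the 37 matrix genes were below 0 with a median of -0.09 and 0 calls, 3 at an unadjusted p under 0.05.

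Cell division genes and lymphocyte markers moved with FL_WT mouse 3. Of 34 cell cycle genes 32 were below 0 with a median of -0.42 (0 called, 9 unadjusted), and without that mouse 19 of 34 were, with a median of -0.06. B cell markers had a median of -2.76 with 8 of 8 below 0 and immunoglobulin genes -1.94 with 8 of 8, against -0.44 (6 of 7) and -0.25 (5 of 6) without it. Ighm, the heavy chain of IgM, was at 1544 TPM in the highest FL_WT library against a group median of 222 TPM, and at 116 to 206 TPM in FL_KO. T cell markers had a median of 0.02 with 4 of 8 below 0, and of 0.26 with 3 of 8 below 0 without FL_WT mouse 3. What part that library has in the called genes beyond the values given was not tested.

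**Figure D4:**
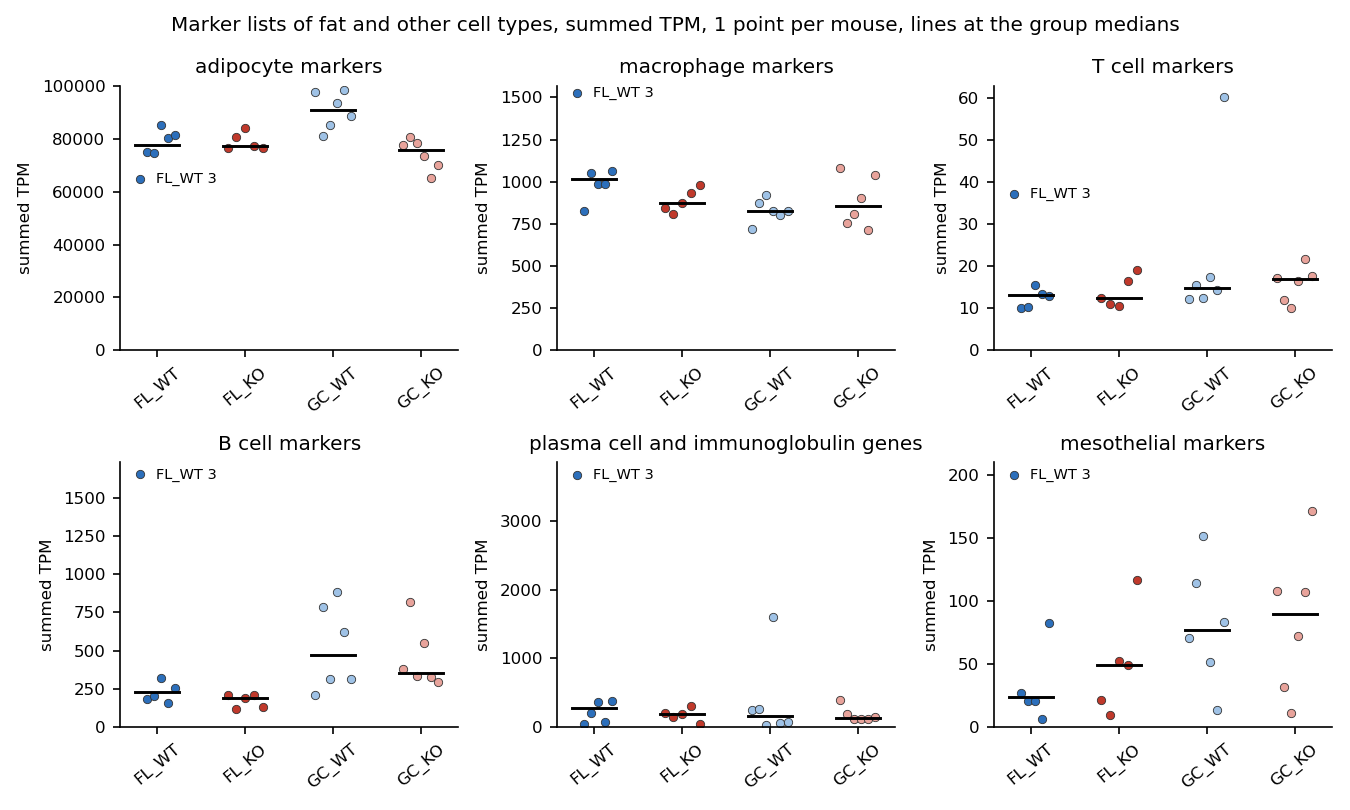
Summed TPM of 6 marker lists (adipocyte, macrophage, T cell, B cell, plasma cell and mesothelial genes) on the y axis is plotted against the 4 groups, 1 point per mouse, with lines at group medians. FL_WT mouse 3 is labelled and holds the highest flight value in the B cell panel (1657 TPM) and the lowest in the adipocyte panel (64965 TPM).

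Interferon-stimulated genes were below 0 in 23 of 26 cases, with a median of -0.15 and 1 call. Without FL_WT mouse 3, 19 of 26 were below 0 with a median of -0.10. Rsad2, the antiviral protein viperin, was at 1.69, 1.84, 4.07, 3.39 and 4.38 TPM in FL_KO and at 3.85, 5.89 and 8.22 TPM in FL_WT (-0.96, SE 0.23, adjusted p = 0.0383). It was not called without FL_WT 5, 6, 7 or 10 or FL_KO 1, 2 or 11 (adjusted p 0.0217 to 0.104). Mouse 4, left out for its hemorrhage, had 28.3 TPM. With it in FL_KO, Rsad2 turned to 0.25 (adjusted p = 0.924) and the list's median to 0.38 with 4 of 26 below 0.

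Protein handling and housekeeping lists had small medians. Canx, the chaperone calnexin, was lower by -0.25 (SE 0.052, adjusted p = 0.0152), at 112, 131, 113, 124 and 132 TPM against 130, 141 and 174 TPM, and was the only call of 26 chaperones. Of these chaperones 19 were below 0 (median -0.06), with 7 at an unadjusted p under 0.05 and 3 without FL_WT mouse 3. On the ground 6 of them were called lower, with a median of -0.27. The p53 targets and ribosomal genes had flight medians of -0.06 and 0.02, each with 2 members at an unadjusted p under 0.05. Bax, the pore-forming effector of apoptosis, was the only call of 19 p53 targets, at 34.9, 30.7, 34.4, 35.2 and 34.4 TPM against 37.9, 43.3 and 51.1 TPM (-0.37, SE 0.077, adjusted p = 0.015). Rpl13a, a protein of the large ribosomal subunit, was the only call of 85 ribosomal genes, at 491, 535, 529, 495 and 462 TPM against 529, 636 and 712 TPM (-0.31, SE 0.075, adjusted p = 0.0453). Calls were lost for Bax without FL_KO 2 (adjusted p = 0.0502), for Canx without FL_KO 1, 9 or 11 (up to 0.0632) and for Rpl13a unless FL_WT 8 or FL_KO 2 was the mouse left out (up to 0.154). Among 37 proteasome genes 31 were below 0, by little (median -0.05, 0 called, 1 unadjusted).

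Clock genes (19), glucocorticoid response and metallothionein genes (14), immediate early genes (22) and integrated stress response genes (20) had 0 calls each in edgeR, with 0, 1, 4 and 2 members at an unadjusted p under 0.05. Their medians were 0.15, 0.13, -0.01 and -0.08. Phgdh, the first enzyme of serine synthesis, was at 366 to 482 TPM in FL_KO and 470 to 576 TPM in FL_WT (-0.38, SE 0.12, adjusted p = 0.16), and Egr2, an early growth response factor, had medians of 1.82 and 2.54 TPM (-1.0, SE 0.345, adjusted p = 0.219).

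Markers of other cell types gave 0 calls in edgeR, with 2 fibroblast markers and 1 neutrophil marker at an unadjusted p under 0.05 and 0 in the other lists named here. Medians were -0.08 over 10 fibroblast, -0.10 over 10 endothelial, -0.12 over 7 smooth muscle and -0.20 over 9 mesothelial markers. Without FL_WT mouse 3 these medians were 0.11, -0.17, -0.10 and 0.60. Below 0 were then 3 of 10, 9 of 10, 5 of 7 and 0 of 9 markers. Brown adipocyte markers were few and low (summed 30.0 to 49.3 TPM in FL_KO, 31.9 to 55.4 TPM in FL_WT). Medians were 0.55 over 6 mast cell, -0.06 over 5 erythroid, 0.02 over 3 skeletal muscle and 0.19 over 3 Schwann cell markers, and 1 neutrophil and 1 germ cell marker could be tested (-0.46 and 0.04). Without FL_WT mouse 3 the mast cell, erythroid, skeletal muscle and Schwann cell medians were 0.74, -0.14, -0.16 and 0.27. At an unadjusted p under 0.05 were then 3 endothelial, 3 mast cell and 2 fibroblast markers, and 0 in the other lists named here. Among the lists with 0 calls in edgeR, DESeq2 called 2 B cell markers, 2 immunoglobulin genes and 1 gene each of the macrophage, class II and cholesterol lists, and limma called 0 in those it could test.

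On the ground, where no mouse is shared with the flight groups, 419 genes were called between GC_KO and GC_WT (2.74% of those tested). Male germ cell markers summed to 221 TPM in GC_KO 11, against 19.9 to 26.3 TPM in the other GC_KO. Its epididymis epithelium markers summed to 21.6 TPM, against 0.27 to 1.64 TPM. Plasma cell and immunoglobulin genes reached 1600 TPM in GC_WT 7, against 21.2 to 253 TPM in the other GC_WT. Dropping GC_KO 11 left 270 ground calls and dropping GC_WT 7 left 275. The part of these libraries in single calls was not tested. Of the flight calls, 85 were also called on the ground in the same direction, 52.1% of the flight calls and 20.3% of the ground calls, and 0 in the opposite direction. The sign was the same on the ground for 159 of the 163, against 55.2% of all genes. The flight calls had a median ground effect of 0.53 in their flight direction against 0.81 in flight. Since the genes were picked by their flight values, the flight median is raised, and these 2 medians do not compare the sizes of the effects. Nfe2l2 (-1.27), Gsta3 (-1.70), Gstm1 (-1.13), Ftl1 (-0.89), Gclc (-0.43), Aox1 (-1.03), Pir (-0.98) and Ces1f (-2.46) were called lower on the ground too, each past the threshold. Nqo1 was lower there by 0.65 on the log2 scale (adjusted p = 0.0465), and Hmox1 had -0.15 (adjusted p = 0.746).

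**Figure D5:**
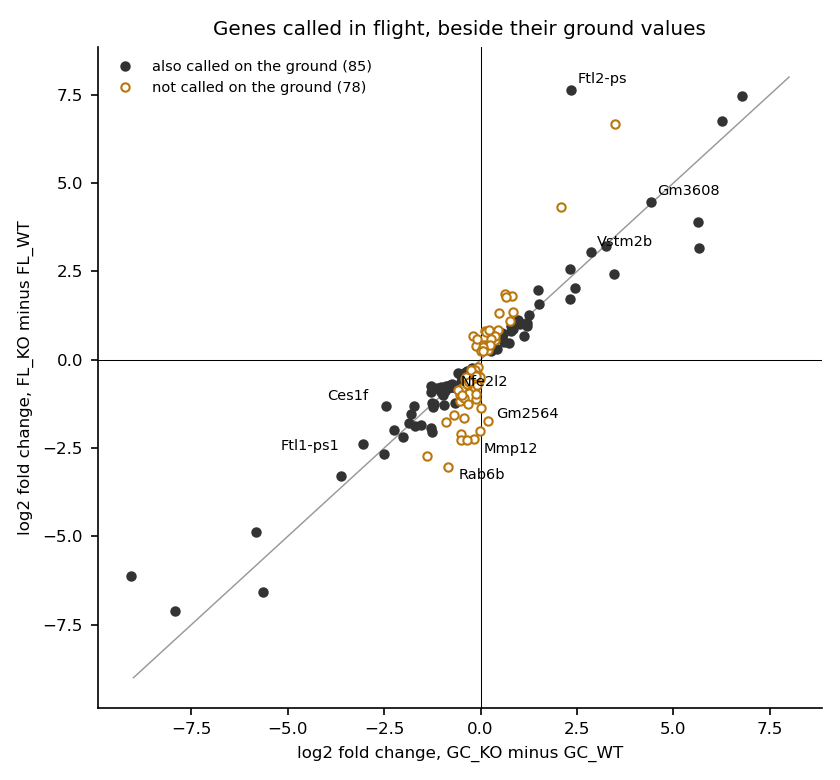
For the 163 genes called in flight, the log2 fold change of FL_KO against FL_WT (y axis) is plotted against that of GC_KO against GC_WT (x axis), with the diagonal drawn. The 85 filled points were also called on the ground and the 78 open points were not, and 159 lie in the quadrants of equal sign.

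The levels themselves differed between the campaigns. Gsta3 was at 108 to 180 TPM in GC_KO and 391.5 to 504 TPM in GC_WT, above its flight range in each genotype, and Gstm1 was at 347 to 441 and 674 to 852 TPM, below its flight range in each. Flight and the later run at another site cannot be told apart in such levels.

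For the difference between the flight and the ground effect of the knockout, 0 genes were called by edgeR, 1291 had an unadjusted p under 0.05, and DESeq2 called 16 and limma 0. The smallest p belonged to Thrb, a thyroid hormone receptor (0.01 in flight, -0.67 on the ground, difference 0.68, SE 0.14), Ttyh1, a membrane channel protein (0.30 and 2.32, difference -2.02), and Mipol1 (0.66 and -0.20, difference 0.87), with an adjusted p of 0.309 each. A gene called in flight alone, such as Hmox1 or Mmp12, is therefore not shown to differ from the ground effect.

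Brown fat between the shoulder blades (iBAT) came from the same 11 mice and had 76 calls among 13054 genes (0.582%), 18 higher and 58 lower. Of the eWAT calls 129 were tested in iBAT, 115 with the same sign (54.3% over all genes tested in both), and 47 were called there in the same direction, 28.8% of the eWAT calls and 61.8% of the iBAT calls. The median effect of the eWAT calls in iBAT was 0.50 in the eWAT direction. As these genes were picked in eWAT, this value does not compare the size of the effect between the depots. Since both depots come from the same mice, they are not independent. In all, 41 genes were called in the same direction in flight eWAT, ground eWAT and flight iBAT, among them Nfe2l2 (-1.34 in iBAT), Gstm1 (-1.39), Ces1f (-1.93), Pir (-1.06), Aox1 (-0.71), Cd59a (-1.19) and Acadl (-0.54).

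The knockout effect differed between the depots for 2 of 15042 genes (0.0133%), with the mouse as a block. Vcpkmt had medians of 12.0 and 6.01 TPM in eWAT of FL_KO and FL_WT and of 9.88 and 1.78 TPM in iBAT, so that its rise was smaller in eWAT by 1.45 on the log2 scale (difference -1.45, SE 0.16, adjusted p = 0.00739). Eci3, an enoyl-CoA isomerase of fat breakdown, had medians of 33.3 and 31.9 TPM in eWAT and of 5.05 and 10.02 TPM in iBAT (difference 1.17, SE 0.13, adjusted p = 0.00739). In eWAT the genotypes overlapped for Eci3 (fold change 0.07, SE 0.12), while in iBAT all knockouts lay below all wild-type mice.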

How the data were processed

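The authors isolated poly(A) RNA from eWAT and iBAT, built strand-specific libraries and deposited 1 gene table for all tissues. Per the submitters' processing notes, reads were demultiplexed with bcl2fastq, aligned to mm10 with STAR 2.6.1 and counted per gene with RSEM 1.3.1, which gives an expected count and a TPM per gene and library. RSEM shares reads that map to several genes between them, and the strand setting of the counting is not given in the sources used here. The deposited FPKM values and the tissues other than eWAT and iBAT were not used. 0 columns of per-sample values belonged to no listed sample. Of the expected counts 5.72% were not whole, and they were rounded.

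Groups and mouse numbers came from the labels. The 23 eWAT libraries of the 4 groups, without FL_KO mouse 4, were fitted together in edgeR 4.0.16 (R 4.3.3) with TMM factors, filterByExpr and the quasi-likelihood F-test, with Benjamini-Hochberg adjustment across the 15317 genes kept. Contrasts were FL_KO against FL_WT, GC_KO against GC_WT and their difference. A second fit with the mouse as a block compared eWAT with iBAT, which come from the same animals. DESeq2 1.42.0 on the counts and limma 3.58.1 on log2(TPM + 1) or log2(TPM + 0.1), for genes with a mean of at least 5 TPM in a group, were alternatives, as were RLE factors, no filter, mouse 4 included, only the groups compared, and leaving out each mouse. SE is the size of the log2 fold change divided by the square root of F. The same number in flight and ground marks different mice, and the correlations of their deviations ranged from -0.136 to 0.395, so the numbers do not pair them.

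Named genes were Nfe2l2, the 15 largest increases and decreases among called genes whose TPM did not overlap and whose mean reached 5 TPM in a group, all called members of the Nrf2 lists, up to 4 called members of each other list (2 with the smallest p where none was called, of which some are given), and the leading genes of both differences. Members and lists were chosen with earlier results of these data known. Lists read from pictures of the study's figures had been planned and were not used. The fits were tested on simulated counts. Positions are from GENCODE on mm10 and promoters from RefSeq on GRCm38.p6. Mice are the replicates, and p-values set a difference against the spread between mice, which the main fit estimates over all 4 groups.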

Additional observations from a re-analysis of the deposited data

Results flagged for a closer look

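In groups of 5 or 6 mice, a mouse was marked where its gap to the nearest other was a large part of the group's range (Dixon's 95% value). Chance marks about 1 in 20 groups, and 13 of 134 were marked here (9.7%), 7 of 100 gene groups and 6 of 34 marker groups. In FL_WT, Ftl2-ps was at 0.58 TPM in mouse 7 and listed at 0 in the others, Gm27177 at 0.15 TPM in mouse 10, and Capza1 at 67.0 TPM in mouse 3. In FL_KO, Gsta3 was at 33.7 TPM and Hmox1 at 48.3 TPM in mouse 2, Bax at 30.7 TPM in the same mouse, and Acad10 at 11.1 TPM in mouse 1.

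All 6 marked marker sums were those of FL_WT mouse 3, with 1657 TPM of B cell, 3679 TPM of plasma cell and immunoglobulin, 1527 TPM of macrophage, 37.2 TPM of T cell, 30.8 TPM of mast cell and 7.94 TPM of neutrophil markers. It lay at -43.9 on the first principal component of the flight libraries (22.3% of the variance). On the third (12.9%) the 5 knockouts lay between 6.45 and 18.6 and the other wild-type mice between -26.5 and -8.69, whereas FL_WT mouse 3 was at 19.8, on the side of the knockouts.

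Between the depots of the same mice, the knockout effect differed by a test of the difference for Vcpkmt (-1.45, eWAT minus iBAT) and Eci3 (1.17), which the report gives by group.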

How the results depend on the processing

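The 163 flight calls became 301 with DESeq2, which kept 162 of them, and 98 with limma on log2(TPM + 1) or log2(TPM + 0.1), 86 shared and 1 main call, Txndc9, of opposite sign. They became 168 with RLE factors, 131 without the filter, 133 with FL_KO mouse 4, 122 with only the flight groups, and 105 (without FL_KO mouse 9) to 209 (without FL_WT mouse 7) when 1 mouse was left out. The 419 ground calls became 690 with DESeq2, 179 with only the ground groups, and 245 to 499 with 1 mouse left out (245, 275, 270 and 270 without GC_WT mouse 3, GC_WT mouse 7, GC_KO mouse 9 and GC_KO mouse 11). The flight and ground difference had 0 calls in the main fit, 16 with DESeq2, 1 with the replicate block and 0 to 1 with 1 mouse left out (1 without GC_WT mouse 5). The depot difference went from 2 to 97 with DESeq2, to 8 with no replicate block, and to between 1 (without FL_KO mouse 12, when Eci3 was not called) and 4 (without FL_KO mouse 11 or FL_WT mouse 5). The median of the antioxidant and detoxification genes, -0.10, was -0.059 and -0.060 with the limma settings and -0.13 to -0.049 with 1 mouse left out (-0.049 without FL_WT mouse 5). Near Nfe2l2, 2 calls became 4 with DESeq2 and 1 with either limma setting, and 2 to 3 with 1 mouse left out. The motif share of genes called lower ranged from 22.0% to 34.1% with 1 mouse left out. Rsad2 reversed to 0.25 with FL_KO mouse 4. Of 49 named called genes, 31 kept their call in the 11 fits without 1 mouse and in the 7 other alternatives. The cause of these changes was not tested.

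Groups of 5 and 6 mice limit what can be seen, more so in the differences between effects than in flight alone. In the simulated counts, changes of 0.5 on the log2 scale were found for 76.1% of changed genes in flight. The share was 41.8% for the flight and ground difference and 8.96% for the depot difference. For changes of 1 the depot difference found 79.1%. Genes with low counts were given no change in this simulation. Gene counts near 0 give no reliable fold, copies share reads, and ground and flight differ in time and site as well.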

Other observations

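Some called genes outside the lists, chosen here after their values were seen, handle iron or other metals. Slc40a1, the iron exporter ferroportin, had a mean of 2.82 TPM in FL_KO and 6.80 TPM in FL_WT with overlap (-1.28, edgeR adjusted p = 0.0102), and Hfe, a regulator of iron uptake, 55.6 and 93.3 TPM without overlap (-0.71, adjusted p = 0.0182). Slc11a1, a metal transporter of phagosomes, had 15.8 and 27.1 TPM (-0.79, adjusted p = 0.000688), and Sfxn2, a mitochondrial carrier, 3.32 and 6.13 TPM (-0.89, adjusted p = 0.00228), again without overlap. These were called lower on the ground too (adjusted p = 0.0377, 0.00222, 0.00307 and 0.000305). They were not a list, and no count of how many iron genes did not move was made.

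Others were chosen in the same way. Mc2r, the receptor for corticotropin, had 73.5 TPM in FL_KO and 45.8 TPM in FL_WT (0.67, adjusted p = 0.00802, and 1.14 on the ground), and Pygl, the glycogen phosphorylase of liver type, 223 and 134 TPM (0.72, adjusted p = 0.000122), each without overlap. Foxp3, the factor that defines regulatory T cells, was low at 1.19 and 0.337 TPM and overlapped (2.03, adjusted p = 0.0132, and 2.46 on the ground), and Klrg1, a lymphocyte receptor, was at 1.78 and 0.498 TPM without overlap (1.81, adjusted p = 0.00337). The C-type lectins Clec4n and Clec4d, next to each other on chromosome 6, were lower at 0.502 against 2.69 TPM and 0.372 against 2.39 TPM (-2.10 and -2.66, adjusted p = 0.0140 and 0.0192).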
